A study of Mus musculus with 8 samples.

Results

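Genes that the array reads at several places far apart on one chromosome were examined in mouse liver DNA, to see how far the fragments of one gene share their methylation signal and its change between late gestation and weaning. Among autosomal names without a colon or hyphen, probes up to 500 bp apart were joined into regions, here called fragments, and a gene was kept if 2 or more of its fragments had starts that differ by 5 kb or more. This gave 727 genes of 15121 (4.81%), with 1667 fragments of 18176. Of these genes, 545 had 2 fragments, 158 had 3, 18 had 4, 5 had 5 and 1, Plec, had 6. The outermost starts of a gene lay a median of 15889 bp apart. The rule uses positions and names and no signal. Mbd6, at 5026 bp, lay just inside the limit and 1110055N21Rik, at 4951 bp, just outside.

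The samples were livers of C57BL6/J mice with no other genotype or treatment: fetuses at day 17.5 after mating (E17.5) and young taken from their dams at postnatal day 21 (P21), with 2 biological replicates of each age. Methylated DNA was enriched by MCAM (methylated CpG island amplification with a microarray readout), and each replicate was hybridised to 2 array designs that divide the genome within chromosome 9. On all 4 arrays Cy3 marked the E17.5 sample and Cy5 the P21 sample; with no array the other way round, age and dye cannot be told apart. The labels do not say whether a sample held DNA of 1 animal or of several, and DNA methylation of whole liver does not show which cell types were present, so the tissue label could not be checked against markers. Array medians of the processed signal lay between 266.8 and 459.9, and between 67.0% and 77.1% of probes were well above background in a channel. None of the member genes had fragments on both designs.

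MCAM rests on a pair of restriction enzymes that cut the same site, CCCGGG, and differ in whether methylation of that site blocks them: unmethylated sites are cut blunt and lost, and methylated sites are then cut with an overhang, joined to adaptors and amplified. A bright fragment is thus one flanked by methylated sites at a short distance from each other. In mammals CG-rich starts of genes are mostly free of methylation, whereas CG-poor starts, gene bodies and the ends of genes are often methylated. Many genes have alternative starts, which can differ in CG content and in the tissue or age at which they are used. Fetal liver also holds many blood-forming cells, which leave before weaning, and in whole tissue a change of methylation within cells and a change in the mix of cells cannot be told apart.

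Names were checked first. Of the 727 names, 538 are current symbols, 169 were updated through RefSeq synonyms (GRCm38.p6) and 20 were not matched. Of the 707 matched names, 1 (Timd4) belongs to another chromosome in RefSeq than in the files, and for 159 of the other 706 (22.5%) the fragments lay further apart than the RefSeq gene is long. Lingo4 is among these. Moreover, 381 of the 1667 fragments lay within 500 bp of a region that bears another name. A shared name therefore does not always mean a shared transcription unit. The sources used here do not name the build of the probe positions, and whether a fragment lies in an exon, an intron or a UTR was not determined.

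Annotated starts far apart were more common among the member genes than among other genes. RefSeq start windows were matched for 569 of the members. Of the 569, 147 (25.8%) had annotated starts 5 kb or more apart, against 645 of 11036 (5.84%) of the other autosomal genes on the arrays. Members were kept for the spacing of their fragments, so this contrast is not independent of the rule and was not tested. Since the builds may differ, positions were not compared. The spacing of fragments was compared with the spacing of starts instead. In 81 genes a pair of fragments was spaced like a pair of starts to within 500 bp, with a median mismatch of 168.5 bp. The 250 bases before each of the 2 starts are shown for 4 such genes in which the ratio between the ages was further from 0 in one fragment than in the other, or of opposite sign; no fragment of these genes passed the test. They are read 5′ to 3′ from RefSeq (GRCm38.p6), with each CG, the methylatable pair of bases, in capitals.

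Bdh1 upstream start (chr16:31422047-31422296, plus strand): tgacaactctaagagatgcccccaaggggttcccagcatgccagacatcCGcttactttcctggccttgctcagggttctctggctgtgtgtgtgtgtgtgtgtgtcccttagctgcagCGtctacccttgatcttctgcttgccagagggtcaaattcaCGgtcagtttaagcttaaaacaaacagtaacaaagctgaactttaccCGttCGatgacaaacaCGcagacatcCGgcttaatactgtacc
Bdh1 downstream start (chr16:31428503-31428752, plus strand): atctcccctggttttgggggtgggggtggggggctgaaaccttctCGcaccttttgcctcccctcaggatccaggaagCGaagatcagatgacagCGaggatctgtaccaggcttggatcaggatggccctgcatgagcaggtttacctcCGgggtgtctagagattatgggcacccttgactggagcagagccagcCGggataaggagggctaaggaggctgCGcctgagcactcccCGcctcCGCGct
Slc38a4 upstream start (chr15:97055957-97056206, minus strand): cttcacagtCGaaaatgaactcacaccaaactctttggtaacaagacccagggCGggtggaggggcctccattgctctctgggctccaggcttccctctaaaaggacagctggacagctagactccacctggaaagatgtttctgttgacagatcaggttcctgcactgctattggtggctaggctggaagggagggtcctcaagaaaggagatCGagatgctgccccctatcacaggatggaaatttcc
Slc38a4 downstream start (chr15:97031214-97031463, minus strand): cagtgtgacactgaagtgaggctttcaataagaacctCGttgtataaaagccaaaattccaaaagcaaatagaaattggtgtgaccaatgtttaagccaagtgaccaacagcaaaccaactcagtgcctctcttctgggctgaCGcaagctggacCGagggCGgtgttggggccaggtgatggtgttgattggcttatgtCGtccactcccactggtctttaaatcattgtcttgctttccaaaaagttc
Trak1 upstream start (chr9:121297252-121297501, plus strand): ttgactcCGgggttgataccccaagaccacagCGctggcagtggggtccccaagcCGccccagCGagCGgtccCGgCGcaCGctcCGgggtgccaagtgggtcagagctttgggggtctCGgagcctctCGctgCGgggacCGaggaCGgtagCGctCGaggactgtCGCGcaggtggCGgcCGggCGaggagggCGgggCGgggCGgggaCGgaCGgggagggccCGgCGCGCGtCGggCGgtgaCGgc
Trak1 downstream start (chr9:121366708-121366957, plus strand): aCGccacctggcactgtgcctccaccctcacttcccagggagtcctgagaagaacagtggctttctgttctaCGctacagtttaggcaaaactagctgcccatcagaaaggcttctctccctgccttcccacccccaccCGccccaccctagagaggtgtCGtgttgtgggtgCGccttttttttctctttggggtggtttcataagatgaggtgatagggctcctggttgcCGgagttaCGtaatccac
Cnr2 upstream start (chr4:135894939-135895188, plus strand): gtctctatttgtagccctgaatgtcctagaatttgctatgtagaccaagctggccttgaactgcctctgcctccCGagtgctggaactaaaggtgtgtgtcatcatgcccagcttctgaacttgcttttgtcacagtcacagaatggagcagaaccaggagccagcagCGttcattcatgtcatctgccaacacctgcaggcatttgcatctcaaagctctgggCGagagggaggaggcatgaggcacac
Cnr2 downstream start (chr4:135911430-135911679, plus strand): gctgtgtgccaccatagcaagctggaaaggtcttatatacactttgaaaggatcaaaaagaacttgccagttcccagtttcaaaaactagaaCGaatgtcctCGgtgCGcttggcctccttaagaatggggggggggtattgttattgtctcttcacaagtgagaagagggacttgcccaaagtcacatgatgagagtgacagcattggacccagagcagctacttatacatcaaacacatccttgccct

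In these windows the Bdh1 starts have 7 and 9 CG, the Slc38a4 starts 3 and 5, the Trak1 starts 33 and 7 and the Cnr2 starts 3 and 3, each upstream start first. None of the 8 windows holds CCCGGG. That motif, which reads the same on both strands, was found in 11.2% of all 32851 RefSeq windows of this length and in 34 of the 162 windows of the matched genes (20.99%). A match of spacing does not place a fragment on a start, and the sites that bound a fragment can lie outside the window.

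Of the 1667 fragments, 1519 had at least 1 probe well above background on every array and entered the fit. The log2 ratio of P21 over E17.5, centred on each array's median, had a median of 0.0018 over them and an SD of 0.287 in replicate 1 and 0.421 in replicate 2 (0.263 and 0.372 over all autosomal regions). No member fragment was called by limma at an adjusted p under 0.05 with a ratio of at least 1 in size, and none of the 20724 regions of the whole table was (0.0%). At an unadjusted p under 0.05 stood 169 of the 1519 fragments, or 11.1%, beside 11.7% of all regions. A ratio of at least 1 on both arrays was seen in 3 member fragments (0.197%) that were brighter in P21, beside 0.0947% of autosomal regions, and in 9 (0.592%) that were brighter in E17.5, beside 0.339%. With 2 arrays an exact two-sided test cannot go below p = 0.5, so the adjusted p-values rest on the variance shared across regions.

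The sign of the change with age was shared by the fragments of one gene about as often as by regions of different genes. Over the 644 genes whose outermost tested fragments could be compared, the mean ratios had the same sign in 49.2%, beside 49.96% of 13752 pairs of successive regions with different names. The correlation of the 2 fragments' ratios was -0.024 in replicate 1 and 0.023 in replicate 2, and 0.059 when one fragment was read on one array and its partner on the other. Neighbouring probes of one and the same fragment, a median of 222 bp apart, had equal signs in 54.3% of 3176 pairs. The correlation of their ratios was 0.384 and 0.350 on the 2 arrays and 0.172 across arrays, and the rank correlation of the mean ratios was 0.147, beside 0.029 for the outermost fragments. Fragments of these genes that lay under 5 kb apart, at a median of 1151 bp, gave -0.062 and -0.038 over 155 pairs. These correlations describe pairs that share an array and its background, and pairs of one gene are not independent of each other. In the 483 genes whose fragments lie no further apart than the RefSeq gene is long, on the chromosome that RefSeq gives, the share of equal signs was 49.5%.

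**Figure D1:**
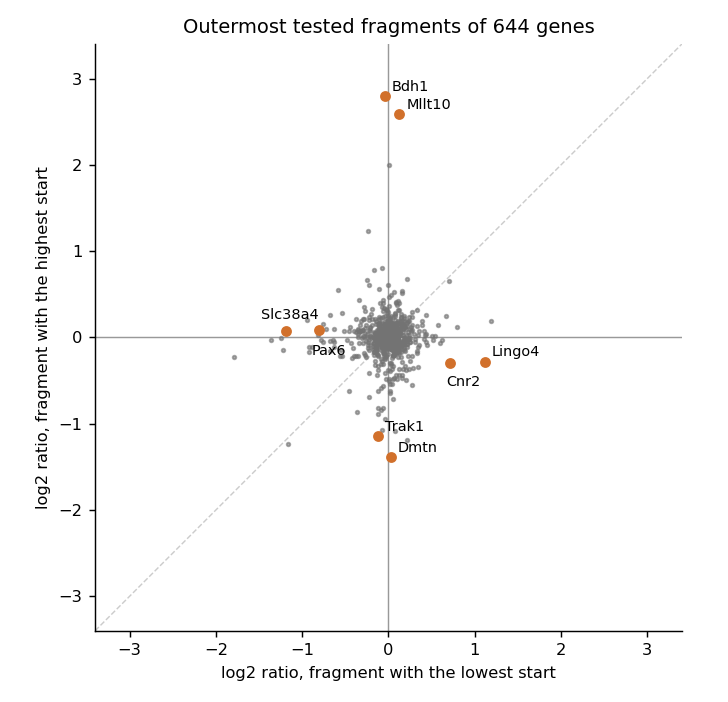
Log2 ratio (P21 over E17.5, mean of 2 arrays) of the outermost tested fragments of 644 genes: the fragment with the lowest start on the x axis, that with the highest start on the y axis, and the line of equality dashed. Named genes are orange. Most large ratios lie along the axes (Bdh1 2.80 against -0.045, Dmtn -1.39 against 0.026), while Oosp1 (-1.17 against -1.24), Plec (0.705 against 0.656) and Timd4 (-0.588 against 0.547) lie off them; the high Mllt10 value is a single probe with -0.10 in replicate 1 and 5.28 in replicate 2.

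Most large ratios occurred in one fragment of a pair, within genes and between different names alike. In the outermost pairs, 35 fragments had a ratio of at least 0.5 in size with one sign on both arrays. The partner also passed 0.5 on each array in the same direction in a single pair, that of Oosp1, an oocyte gene, and in the opposite direction in none. By the mean of the arrays, both fragments reached 0.5 in size in 3 pairs (0.466%), Oosp1 and Plec with equal signs and Timd4 with opposite ones, beside 0.305% of the pairs of different names. The median ratio of the 35 partners, signed along the fragment, was 0.052, and 24 of the partners (68.6%) lay on the same side of 0. Among pairs of different names, 590 fragments passed 0.5, their partners had a median of 0.016 and 54.4% lay on the same side. Of these partners, 8 passed 0.5 on each array in the same direction and 6 in the opposite one. Within genes the Oosp1 pair gives 2 of the 35 partners. The Oosp1 fragments rest on 1 tested probe each, with ratios of -0.70 and -1.64 in the first and -1.20 and -1.27 in the second, and their processed signals in P21 lay between 49.82 and 71.35.

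The share of equal signs and the size of the difference had no steady order with distance. The size of the difference between the outermost fragments had a median of 0.175, beside 0.164 for different names, and the share of equal signs lay between 45.8% (216 genes with starts 5 to 10 kb apart) and 54.8% (115 genes at 20 to 50 kb). In those 115 genes the correlation of the ratios was 0.213 and 0.263 on the 2 arrays and 0.187 across arrays, beside 0.039, -0.0045 and 0.016 for different names at that distance. In the other distance classes it lay between -0.12 and 0.020 on single arrays. The difference had one sign on both arrays in 61.6% of the genes and in 63.9% of the pairs of different names, and its correlation between the arrays was 0.264 within genes and 0.402 between names.

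**Figure D2:**
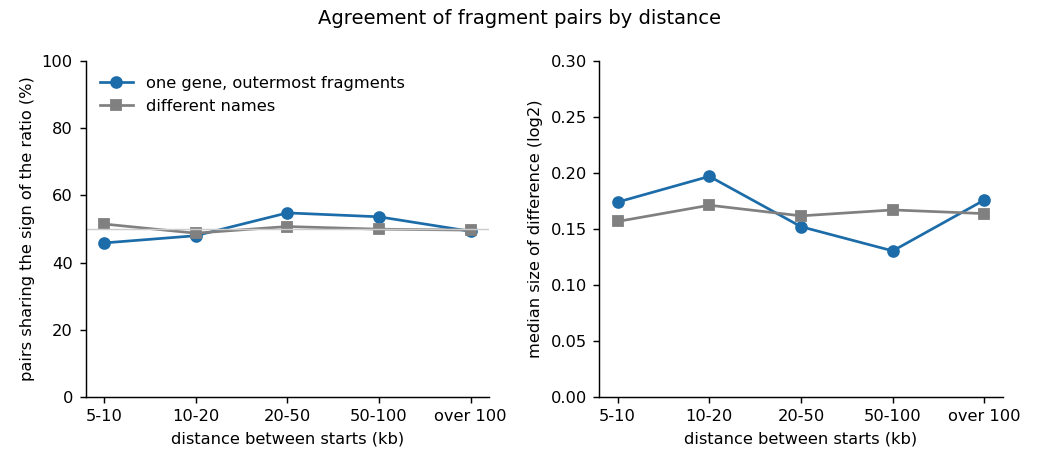
Left, share of fragment pairs whose mean log2 ratios have the same sign (%), right, median size of the difference in log2 ratio, by distance between starts (kb). Blue circles are the outermost fragments of one gene (216, 173, 115, 69 and 71 genes), grey squares successive regions of different names. Both lines stay near 50% and between 0.13 and 0.20.

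The difference between fragments was then fitted for each of 813 within-gene pairs together with the 13752 pairs of different names. No within-gene difference was called by limma at an adjusted p under 0.05 and a size of at least 1, while 2 of the 14565 pairs were (0.0137%), both holding Nrbp2 and a neighbour. The lowest adjusted p within a gene was 0.224. At an unadjusted p under 0.05 stood 125 of 813 (15.4%), beside 13.1% of all pairs. A difference of at least 1 with one sign on both arrays was seen in 11 within-gene pairs of 10 genes (1.35%), beside 0.713% of pairs of different names. In 6 of the 11 one side rested on a single probe. The genes described next were chosen by the size of these differences, so the values are a description, and none of the differences passed the test.

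Of hepatocyte metabolism, Bdh1 (Bdh in the files), the mitochondrial enzyme that interconverts the ketone bodies acetoacetate and hydroxybutyrate, showed the widest contrast. Its first fragment (chromosome 16, 30231468 to 30231701) had processed signals of 944.7 and 785.4 in the E17.5 replicates and 859.7 and 832.2 in P21, from 1 tested probe. The second (30237227 to 30238457) had 1407 and 2043 in E17.5 and 10794 and 13194 in P21. The ages overlap in the first fragment and are apart in the second, in which 5 of 6 probes were brighter in P21 on both arrays and the probe nearest the first fragment was not. The log2 ratios were -0.15 and 0.06 against 2.93 and 2.67, a difference of 2.84 ± 0.33 (SD, n = 2 arrays), the adjusted p 0.224.

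Lpin1, a phosphatidate phosphatase of triglyceride synthesis, and Igf1, the growth factor that liver secretes, are the other 2 members of the metabolism list. Lpin1 had ratios of -0.75 and -1.10 in its first fragment and -0.20 and -0.13 in its second, so that both were dimmer in P21 on both arrays. The Igf1 fragments had 0.13 and -0.004 against -0.12 and -0.83, and the difference of -0.54 ± 0.41 (SD, n = 2) was of one sign on both arrays.

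Lingo4 (Lrrn6d in the files), a leucine-rich repeat membrane protein, had fragments on chromosome 3. The first (93886526 to 93887303, 4 probes) had 7426 and 10228 in E17.5 and 18375 and 19539 in P21, with the ages apart. Its ratios were 1.31 and 0.92. The 2 probes with the lowest positions had ratios of 2.62 and 2.35 in replicate 1 and 1.85 and 1.70 in replicate 2. The other 2 had 0.205 and 0.056, then 0.117 and 0.016. The second fragment, 13590 bp further along, had 2091 and 1717 in E17.5 and 1861 and 1317 in P21, and the ages overlap. Its ratios were -0.17 and -0.40. Of its 6 probes, 4 were dimmer in P21 on both arrays and 2 brighter. The 2 furthest from 0 had -0.471 and -0.372 in replicate 1 and -1.132 and -1.108 in replicate 2. The difference between the 2 fragments was -1.40 ± 0.11 (SD, n = 2), the adjusted p 0.224. They lie further apart than the RefSeq gene is long, so they share the name but need not both lie in Lingo4.

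Slc38a4, an imprinted amino acid transporter of liver and placenta, has 4 fragments on chromosome 15 and lies on the minus strand. The fragment at 97087669 to 97087960 had 5944 and 5558 in E17.5 and 2482 and 2633 in P21. The one at 97098667 to 97099925 had 885.8 and 719.6 in E17.5 and 426.5 and 255.4 in P21. In both the ages are apart, with ratios of -1.27 and -1.10 and of -1.07 and -1.52. The fragment at 97123496 to 97124611, spaced like the upstream start, had 5024 and 4374 in E17.5 and 5392 and 4621 in P21, and the ages overlap; its ratios were 0.09 and 0.05. Against that last fragment the first differed by 1.26 ± 0.15 and the third by 1.37 ± 0.30 (SD, n = 2 each), the adjusted p being 0.234 and 0.245. In the third fragment 1 of the 3 tested probes had ratios of 0.174 and 0.028, and one of the other 2 had P21 signals of 122.4 and 52.09. The difference of 1.37 became 0.63 with no filter on dim probes, 0.85 with probes well above background in both channels, and 0.46 with normexp and loess. The second fragment is a single probe with -0.19 and 1.13, and the arrays disagree on its direction.

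**Figure D3:**
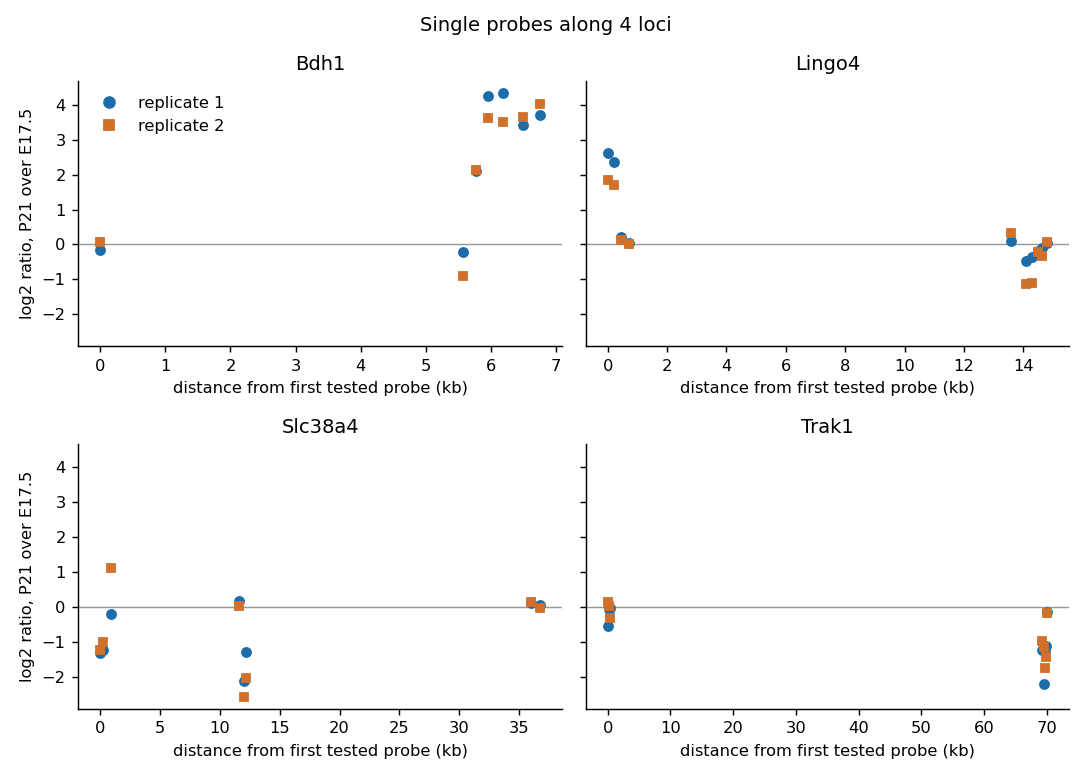
Log2 ratio (P21 over E17.5) of each tested probe against its distance from the first tested probe of the locus (kb), in replicate 1 (blue circles) and replicate 2 (orange squares). In Bdh1 and Trak1 most probes far from 0 lie in one fragment, in Slc38a4 in 2 of the 4. In Lingo4 the farthest lie in fragment 1, and 2 probes of fragment 2 have -1.132 and -1.108 in replicate 2. The lone probe of Slc38a4 fragment 2 has opposite signs on the arrays.

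Trak1 links mitochondria to microtubule motors. Its first fragment (chromosome 9, 121313184 to 121313774), spaced like the upstream start with 33 CG, had 423.7 and 294.6 in E17.5 and 371.3 and 290.6 in P21, and the ages overlap. The second (121382661 to 121383610), spaced like the downstream start with 7 CG, had 9095 and 6289 in E17.5 and 4001 and 2993 in P21, and all 5 probes were dimmer in P21 on both arrays. The ratios were -0.20 and -0.04 against -1.20 and -1.10, a difference of -1.02 ± 0.041 (SD, n = 2), the adjusted p 0.245. With normexp background correction it was -0.35.

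Cnr2, the cannabinoid receptor of immune cells, had fragments that leaned in opposite directions. The upstream one (chromosome 4, 134775910 to 134776922) had 2599 and 2989 in E17.5 and 3556 and 5893 in P21, the downstream one (134792701 to 134793210) 468.4 and 389.5 in E17.5 and 354.6 and 344.2 in P21. The ages do not overlap in either. The ratios were 0.45 and 0.97 against -0.40 and -0.19, and the difference was -1.01 ± 0.22 (SD, n = 2), the adjusted p 0.255. The downstream fragment has 2 tested probes, a dim one (107.6 and 89.9 in E17.5) with -0.70 and -0.32 and a bright one with -0.10 and -0.06.

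Dmtn (Epb4.9 in the files), which bundles actin in the red cell membrane skeleton, leads the blood list. Its fragment at chromosome 14, 64945861 to 64946192, had 1463 and 1638 in E17.5 and 770.7 and 464 in P21, with the ages apart and ratios of -0.94 and -1.84. Its fragment at 64934076 to 64935063 had 917.4 and 827 in E17.5 and 1052 and 767.5 in P21, with the ages overlapping. Of the 6 tested probes of that fragment, 3 were brighter and 2 dimmer in P21 on both arrays. The probe at 64934763 had ratios of 0.896 and 1.019. The difference was -1.42 ± 0.42 (SD, n = 2), the adjusted p 0.248, and -0.80 with normexp.

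Pax6, a regulator of eye, brain and pancreas development, leads the list of developmental factors. Its first fragment (chromosome 2, 105372748 to 105373966) had 447.2 and 395.1 in E17.5 and 324.3 and 179.4 in P21, and its second (105379898 to 105381077) 916.1 and 584.4 in E17.5 and 936.6 and 650.7 in P21. In the first the ages are apart, with 2 of 4 tested probes dimmer in P21 on both arrays, and in the second they overlap. The difference of 0.90 ± 0.57 (SD, n = 2) had an adjusted p of 0.309 and was 0.56 with normexp.

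Plec (Plec1 in the files), the cytolinker of intermediate filaments, showed both directions along 35644 bp. Fragments 1 (6 probes) and 6 (10 probes) had ratios of 0.65 and 0.76 and of 0.84 and 0.48, the signals of fragment 6 being 6634 and 11682 in E17.5 and 11954 and 16531 in P21. In fragment 1, 3 probes were brighter in P21 on both arrays and 0 dimmer, and 2 carry most of its ratio (1.776 and 2.628, then 1.891 and 2.654). In fragment 6, 7 probes were brighter in P21 on both arrays and 3 dimmer. Fragments 2, 3 and 4, which hold 15, 4 and 10 tested probes, had mean ratios of 0.000, 0.061 and 0.106. Fragment 5, which ends less than 1000 bp before fragment 6, had -0.31 and -0.92, with 451.2 and 450.5 in E17.5 and 367.4 and 241.5 in P21. Of its 5 probes, 2 carry most of this ratio (-0.44 and -2.03, then -0.96 and -2.19), and their P21 signals were low, at 67.82 and 69.42 and at 143.2 and 49.9. Between fragments 1 and 5 the difference was -1.32 ± 0.52 (SD, n = 2), the adjusted p 0.255. The part of its size that comes from fragment 5 rests on dim probes. With probes well above background in both channels the difference was -1.167. The difference was -0.47 at a gap of 1000 bp, which joins fragments 5 and 6. Fragments 1 and 6, the outermost, differed by -0.048 ± 0.34.

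**Figure D4:**
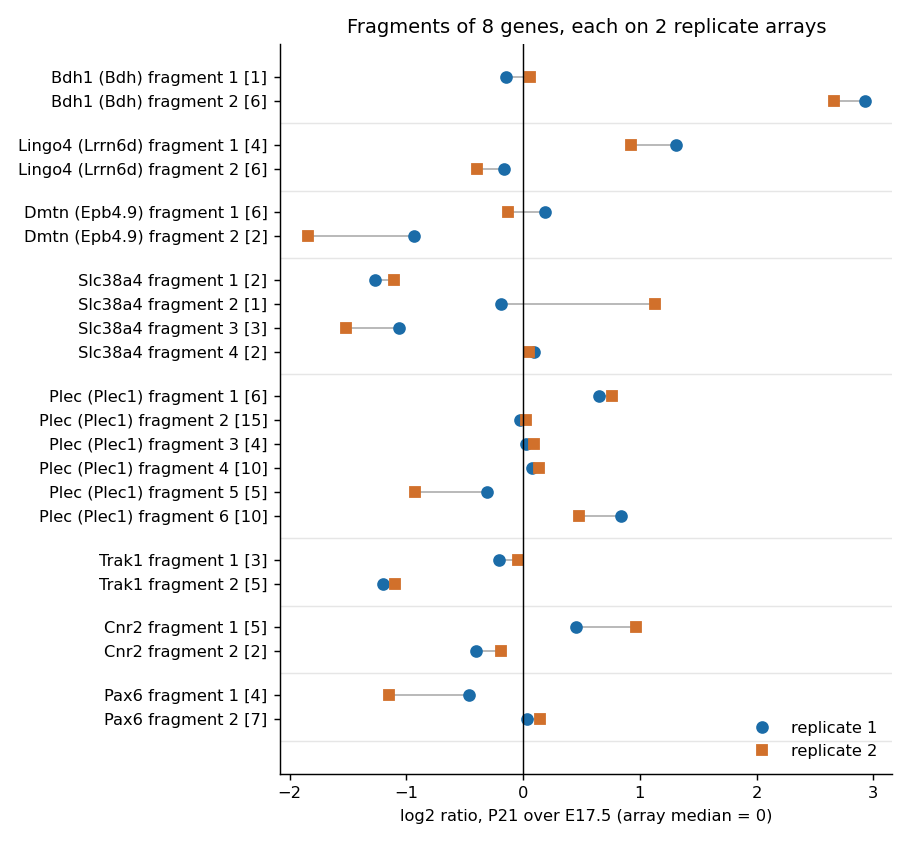
Log2 ratio (P21 over E17.5, array median at 0) of every tested fragment of 8 genes on replicate 1 (blue circles) and replicate 2 (orange squares); fragments are numbered by position and the number of tested probes is in brackets. In Bdh1, Dmtn and Trak1 one fragment stands apart from 0 on both arrays and the mean over the tested probes of the other lies within 0.21 of it.

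Fragments of one gene leaned the same way on both arrays most strongly in Slc38a4 (fragments 1 and 3) and Plec (fragments 1 and 6), among genes with 2 or more tested probes in each fragment. The rule on the smaller of both ratios also gave Kcnk4, a potassium channel (0.28 and 0.59 in one fragment, 0.02 and 0.49 in the other), Stab1, a scavenger receptor of liver sinusoidal endothelium (-0.80 and -0.04, then -0.31 and -0.17), Myh11, the smooth muscle myosin (0.30 and 0.25, then 0.36 and 0.11) and 5730410E15Rik. Among these 4 the Myh11 fragments, 34941 bp apart, were closest to each other, and differed by -0.040 ± 0.14 (SD, n = 2). The 5730410E15Rik fragments had -0.54 and -0.37, then -0.02 and -1.21, so that the second rests on 1 array. The means of the second Kcnk4 fragment and the first Stab1 fragment also rest mainly on 1 array. A single probe had 0.193 and 1.951 in that Kcnk4 fragment, and -2.218 and 1.459 in that Stab1 fragment. In all, both outermost fragments were brighter in P21 on both arrays in 74 genes and dimmer in 65, together 21.6% of the 644, and each leaned its own way in 119, 18.5%. The corresponding shares for different names were 20.7% and 20.8%.

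The genes with the most tested fragments beside Plec were Ttll3 (4833441J24Rik in the files), Mcm2, Pde4a and Ppfibp1, each with 5. Mcm2, a subunit of the replicative helicase, had 4 fragments with mean ratios between -0.107 and -0.004. Its fragment 4 stood out, with 5220 and 5987 in E17.5, 3497 and 4370 in P21, and ratios of -0.58 and -0.47. These are means of 2 probes far apart in brightness: one had 83.11 and 89.83 in E17.5 and ratios of -0.24 and -0.12, the other 327802 and 399002 and ratios of -0.91 and -0.82, so that the value rests mainly on 1 probe. Between fragments 1 and 4 the difference was -0.52 ± 0.12 (SD, n = 2), the adjusted p 0.301. In Pde4a, a cyclic AMP phosphodiesterase, mean ratios ran from -0.288 in the single-probe fragment 2 to 0.206 in fragment 5. In Ttll3, a tubulin glycine ligase, they ran from -0.091 to 0.442, the highest in fragment 1, a single probe with 3835 and 2637 in E17.5 and 5361 and 3505 in P21. Ppfibp1, a liprin of cell adhesion sites, had mean ratios of -0.36 and -0.39 over the 7 tested probes of fragment 4. These means rest mainly on 1 probe with -1.915 and -2.265. Of the 7 probes, 3 were dimmer in P21 on both arrays and 0 brighter. The single tested probe of fragment 3 gave 0.37 and -2.24, opposite signs on the arrays.

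Over the gene lists, members were few. They were chosen with earlier results of these data known. The imprinted list had 6 members of 47 genes on the arrays, the developmental factors 6 of 118, liver transcription factors and nuclear receptors 6 of 61, hepatocyte metabolism 3 of 80, blood 6 of 58, signalling 4 of 100, adhesion, guidance and channels 4 of 107, chromatin and methylation 5 of 43 and other liver cells 2 of 37. None of their fragments or differences was called, beside 0.0% of all regions and 0.0137% of all pairs. Equal signs of the outermost fragments were found in 2 of 6 imprinted genes, 2 of 6 developmental factors, 2 of 5 liver factors, 1 of 3 metabolism genes, 3 of 6 blood genes, 2 of 4 signalling genes, 3 of 3 adhesion genes, 4 of 5 chromatin genes and 1 of 2 genes of other liver cells. The median sizes of the difference were 0.065 for chromatin genes and 0.064 for adhesion genes at the low end and 0.757 for metabolism at the high end, beside 0.175 over all member genes.

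The leading genes of the remaining lists ranged from small to large differences. Dnmt3a, a DNA methyltransferase, had 823 and 569 in E17.5 and 825.7 and 568 in P21 in its first fragment, 1235 and 859.9 in E17.5 and 1160 and 838 in P21 in its second, and a difference of -0.065 ± 0.042 (SD, n = 2). The ages overlap in both. Plxna4, a semaphorin receptor, differed by 0.064 ± 0.012 over 138243 bp. Fgfr2, a fibroblast growth factor receptor, differed by 0.32 ± 0.16, its second fragment being 1 probe. Timd4, a phosphatidylserine receptor of macrophages, had 1.14 ± 0.80 between its outermost fragments, the value resting on a single probe at one end and on a name that RefSeq places elsewhere; with normexp it was 0.28. Among imprinted members, the 4 fragments of Gnas had mean ratios between -0.128 and 0.162, and the Grb10 fragments 0.39 and -0.05, then -0.43 and 0.35, with the arrays opposed in both.

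Of the 3 genes with the greatest distances, 2 are wider than their RefSeq gene. Pcnx4 (1810048J11Rik in the files), a membrane protein, has fragments 12962516 bp apart and H3c10 (Hist1h3h), a histone gene of a multigene cluster, 1856706 bp. Pcnx4 had 823.2 and 681.3 in E17.5 and 823.2 and 565.3 in P21 in one fragment, 825.4 and 635.3 in E17.5 and 778.8 and 670 in P21 in the other, and the difference of 0.13 ± 0.30 (SD, n = 2) had opposite signs on the arrays. Cntnap2, a neuronal adhesion gene of great length, has fragments 2183535 bp apart, less than the length of its RefSeq gene. They had ratios of 0.006 and -0.20 and of 0.11 and 0.01, and differed by 0.16 ± 0.075. H3c10 had 1 fragment in the fit and 2 single-probe fragments not well above background in any reading.

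In some genes signal was detected in one fragment and not in another. A fragment was counted as on if all its probes were well above background in both channels on both arrays, as off if none was in any, and as mixed otherwise. Of the 1667 fragments 37.7% were on, 55.8% mixed and 6.48% off, beside 38.7%, 54.1% and 7.202% of all autosomal regions. In 102 genes all fragments were on and in 1 all were off. An on and an off fragment stood together in 48 of the 727 genes (6.602%), a share that ran from 37.52% at a gap of 200 bp to 2.77% at 1000 bp. Between the outermost fragments alone it was 24 of 727 (3.301%), beside 268 of 14274 pairs of successive regions with different names (1.878%), a difference that was not tested. Of the 51 off fragments in these 48 genes, 35 had a single probe, and no gene had an on and an off fragment of 3 or more probes each.

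Few fragments changed from one extreme to the other between the ages. In E17.5, 648 member fragments had all readings well above background and 127 had none, in P21 736 and 120. Over all probes the share well above background was also larger in P21 than in E17.5 on every array. On design 1 it was 77.1% against 75.9% in replicate 1 and 71.9% against 69.6% in replicate 2. On design 2 it was 73.1% against 70.6% and 74.1% against 67.0%. Whether the rise in member fragments goes beyond this was not tested. Off at E17.5 and on at P21, or the reverse, were 3 fragments, those of Gsto1, Lpp and Oosp1, each of 1 probe.

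Of the 48 genes with an on and an off fragment, 4 are on a gene list: Ncor1, Runx2, Frap1 and Kcnc1. In Ncor1, the nuclear receptor corepressor, fragment 2 was on but is a single probe, with ratios of 0.18 and -1.46, opposite signs on the arrays. Its fragment 1 (chromosome 11, 62163855 to 62165081) had 6 probes with means of 89.44 and 94.56 in E17.5 and 69.17 and 52.67 in P21, none well above background. In Runx2, a bone transcription factor that stands on the blood list here, fragment 2 of 2 probes was likewise not well above background. The single probe of its fragment 1 had 1454 and 1109 in E17.5 and 1756 and 1213 in P21. In Frap1 (now Mtor, a growth kinase) and Kcnc1 (a potassium channel) the off fragment was a single probe. The 2 larger Kcnc1 fragments were on, with 2475 and 1363 in E17.5 and 2314 and 1171 in P21 over 3 probes, and 2245 and 1677 in E17.5 and 1998 and 1747 in P21 over 7.

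Along the gene the fragment nearest the 5′ end was detected more often. In the 569 genes with a strand, a mean of 77.1% of its readings were well above background, against 69.5% at the 3′-most fragment; the share was larger at the 5′ end in 275 genes, larger at the 3′ end in 193 and equal in 101. Off were 18 of the 5′-most fragments (3.16%) and 43 of the 3′-most (7.56%), and 14 genes were on at the 5′ end and off at the 3′ end, 6 the reverse. In the 400 genes with 2 or more probes at both ends, the means were 76.0% and 70.4%. There 30% of the 5′-most and 28.25% of the 3′-most fragments were on, and 4 and 14 were off. The 569 genes include some whose fragments lie further apart than the RefSeq gene is long, so an outermost fragment can lie outside the gene.

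Among the 162 fragments spaced like annotated starts, the share of on fragments was higher where the start window had more CG. With 5 CG or fewer, 12 of 70 fragments were on (17.1%), with 6 to 15 CG 14 of 45 (31.1%), and with 16 or more 22 of 47 (46.8%), where none was off. These fragments come in pairs from 81 genes. Since all probes must be well above background, a fragment of few probes is counted as on more easily. The part of probe number in this order was not tested. GC content moved with the CG count, with medians of 46.2%, 57.2% and 68.8% in the 3 classes, and its part in this order was not tested. The ratio between the ages went the other way: its size had a median of 0.135 over the 65 tested fragments with 5 CG or fewer, 0.107 over 42 with 6 to 15, and 0.068 over 47 with 16 or more. Brightness differed too, with median signals of 216.9, 376.9 and 679.5 in the 3 classes, and its part in this order was not tested. A ratio of at least 0.5 in size with one sign on both arrays was found in 1, 3 and 0 fragments of these classes. The upstream window of a pair had a median of 12 CG and the downstream window 5, and 28 of the 81 upstream and 20 of the 81 downstream fragments were on.

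**Figure D5:**
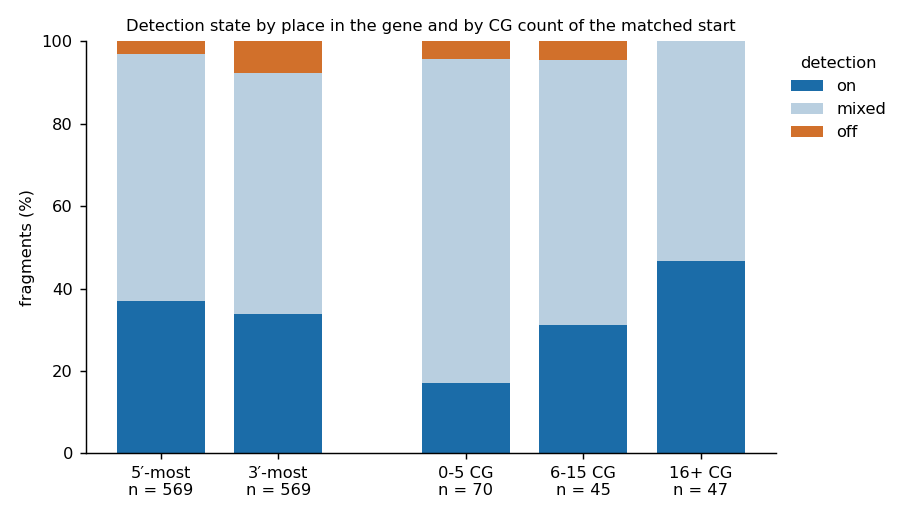
Share of fragments (%) that were on (dark blue), mixed (light blue) or off (orange): the 5′-most and 3′-most fragments of 569 genes, and 162 fragments spaced like an annotated start, by the number of CG in the 250 bases before that start. The off share is 3.16% at the 5′ end and 7.56% at the 3′ end, and the on share is 17.1%, 31.1% and 46.8% in the 3 CG classes.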

How the data were processed

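Per the file headers, the scanner software was Agilent Feature Extraction, in version 9.1.1.1 for 1 array and 9.1.3.1 for the other 3 (the submitters' processing notes give 9.1.1.1), and its processed signals are linear intensity values after background subtraction and a dye factor for each channel. The deposited log10 ratio, per the file headers, of red over green was read to check direction (correlation 1 with the computed ratio). The scanner files of both ages of a replicate are identical, and the value table that the authors deposited repeats these intensity values (100% within 0.6%). Its column medians were 460, 308, 341 and 274.8 for E17.5 and 454, 312, 330.2 and 266.8 for P21, on a linear scale and uncentred.

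The median log2 ratio of each array was set to 0, and no loess was applied. A probe entered only if no array flagged it as an outlier and every array had it well above background in 1 channel or both, which kept 4695 of 6450 member probes. A fragment's value is the mean over its tested probes. Ratios and differences were fitted against 0 with limma 3.58.1 (R 4.3.3), with p-values adjusted by Benjamini-Hochberg over the whole table; the fit was tested on simulated data. Both ages share an array, which is a block by construction: the deviations of its 2 channels correlated at 0.686 over 20724 regions. The text names the 8 genes with the largest within-gene difference (2 or more tested probes each), the 6 with the largest ratios of one sign, the 5 with the most tested fragments, the leading member of each list, the 3 widest and any of 5 genes of interest that is a member; genes on more than one of these lists count under each. 5 genes with an on and an off fragment of 3 or more probes were to be named, but 0 qualified. The genes named outside this rule (Oosp1, Lpin1, Igf1, Gnas, Grb10, Gsto1, Lpp, Ncor1, Runx2, Frap1, Kcnc1, Mllt10) were chosen after their values were seen. An item that this rule names is not reported here. Members and lists were chosen with earlier results of these data known. Alternatives were other signal corrections, filters, gaps and distances, leaving out replicates and dropping the array block. Tables used pandas 2.3.3, figures matplotlib 3.10.9.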

Additional observations from a re-analysis of the deposited data

How the results depend on the processing

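No member fragment and no within-gene difference was called uncentred (fragments only), with loess alone, with no or a stricter filter on dim probes, at gaps of 200 or 1000 bp, at a distance of 20 kb, with trended variance or with no fold minimum. Without the replicate block, with the channels unpaired, both counts were also 0, and unadjusted p-values under 0.05 fell from 169 to 40 fragments and from 125 to 24 differences. Normexp called 10 fragments (among them Abr, Bdh1, Grid1, Hsf4, Lingo4, Mef2b, Oat, Plec and Zfp521; 99 regions in all, 0.478%) and 21 differences (186 in all, 1.28%), among them those of Bdh1, Lingo4, Slc38a4, Plec and Cnr2. Normexp followed by loess, added after seeing the data, called 1 fragment and 1 difference, both of Bdh1 (2.58). The cause was not tested. Equal signs of the outermost fragments moved from 49.2% to 51.4% with normexp, 48.3% with normexp and loess, 50.8% uncentred, 58.7% with no filter, 48.0% with both channels well above background, 50.5% and 48.3% at gaps of 200 and 1000 bp, 52.9% at 20 kb, 49.8% with 2 or more tested probes per fragment (added) and to between 50.6% and 51.4% with 1 replicate left out. The probes that the filter removes had median ratios of -0.233 and -0.546. The median difference was 0.238 with normexp, 0.078 with normexp and loess, and between 0.161 and 0.234 on single replicates. Genes with an on and an off fragment were 37.5% at a gap of 200 bp, which makes more and shorter fragments, 2.77% at 1000 bp, 8.11% at 20 kb and 7.70% to 7.84% on single replicates. Of 23 named differences, 4 small ones changed sign with normexp: 5730410E15Rik to 0.027, Myh11 to 0.013, Pde4a to -0.11 and Fgfr2 to -0.32. The others kept their direction under each such setting in which both fragments were tested, but 15 of the 23 fell in size by over 1.5 times, or changed sign, under at least 1 setting other than leaving out a replicate, and 8 rose by over 1.5 times. Those of Bdh1, Lingo4, Cnr2 and Dnmt3a are among the 5 that did neither. With normexp and loess Slc38a4 was 0.46, Plec -0.69, Dmtn -0.83 and Pax6 0.38. On single replicates 4 (Pcnx4, 5730410E15Rik, Myh11 and Stab1) had opposite signs.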
